A study of Mus musculus with 10 samples.

Results

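Mouse myotubes depleted of the muscle long non-coding RNA Charme with the gapmer set GAP-2/3 were compared directly with myotubes depleted with GAP-2. The comparison used 4 of the 10 libraries of the series, GAP-2 replicates A and B and GAP-2/3 replicates A and B, and covered the 10993 of 11228 listed genes whose mean reached 1 FPKM over the RNA-seq libraries. Each value was placed beside the level in the scrambled control GAP-scr (replicates A and B). All 6 libraries were polyadenylated RNA from myotubes differentiated in culture for 2 days, and the other 4 libraries of the series, a pull-down of Charme with its controls, were not used. The labels call the libraries of a group biological replicates but do not say whether each was a separate culture, so the spread behind the p-values is that between libraries and may be technical. They also do not give the source of the myoblasts, the dose of the gapmers or the make-up of the sets, and the name GAP-2/3 leaves it unstated whether that set holds the GAP-2 oligonucleotide. Charme itself is not analysed here, so the extent of its depletion in each arm was not measured.

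A gapmer is a short antisense oligonucleotide with a DNA core that directs RNase H to cut the RNA it pairs with. When amino acids run short, unfolded protein accumulates or certain other stresses act, phosphorylation of the initiation factor eIF2α slows general translation while the transcription factor ATF4 is translated more, and ATF4 with its partners switches on genes of amino acid synthesis, transport and stress signalling. This program is called the integrated stress response. Hypoxia-inducible factor, which is degraded when oxygen is plentiful, drives genes of glucose uptake, glycolysis and vessel growth. Both programs operate in muscle cells, where Fgf21 and Gdf15 are secreted products of the former.

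FPKM, the unit of all levels below, is the number of fragments relative to the length of the transcript and the size of the library. It keeps no depth, so counting error is unknown. Differences were tested with limma on log2(FPKM + 1), a scale that understates the change of weakly expressed genes, over 3 groups of 2 libraries fitted together, and a gene was called when its Benjamini-Hochberg adjusted p was under 0.05. The 2 replicates of each group had correlations across genes between 0.989 (GAP-scr) and 0.995 (GAP-2). Rn45s, the ribosomal RNA precursor, stood at 3387 FPKM in replicate A of GAP-scr and 4090 in that of GAP-2, but between 93.2 and 176 in the other 4 libraries. The library GAP-2 replicate A therefore stands apart from its partner, and values without both of those libraries are given where they bear on a result.

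Between the arms 1115 genes were called, 10.1% of those tested, with 714 higher (6.5%) and 401 lower (3.65%) in GAP-2/3. At an unadjusted p under 0.05 there were 2854. Most called differences were moderate, with a median size of 0.57 on the log2 scale. A difference of more than 1 was seen in 75 of the higher and 50 of the lower genes. The values of the 2 arms did not overlap for any called gene, but neither did they for 61.5% of all genes tested. The median difference over all genes was 0.05 and 58.8% were positive, and scaling every library to the same median gave 494 higher and 424 lower genes. At the threshold, Rell1 lay just inside (adjusted p of 0.0499) and Prkra just outside (0.05). Leaving out GAP-2/3 replicate A left 195 calls, and replicate B of that arm 243. Leaving out GAP-2 replicate A left 351 calls, and its replicate B 533. With GAP-scr replicate A left out there were 2038, and with its replicate B 2052. Without both libraries rich in Rn45s there were 872.

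**Figure D1:**
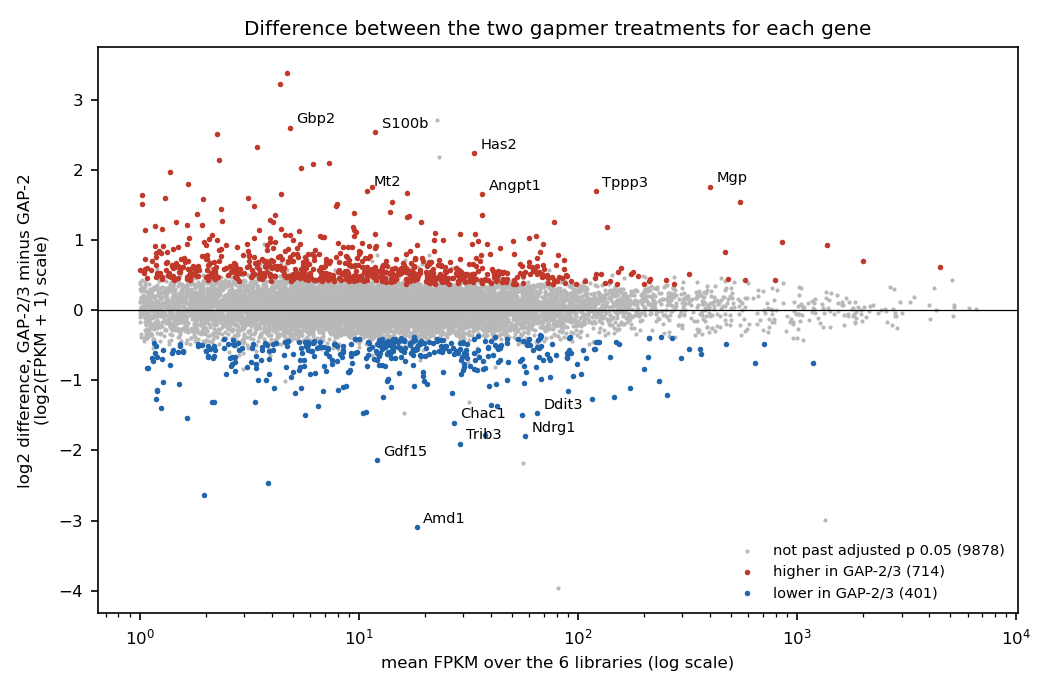
Each point is 1 of the 10993 genes, with its mean FPKM over the 6 libraries on a log axis and its difference, GAP-2/3 minus GAP-2, as log2(FPKM + 1). The 714 higher genes are red and the 401 lower genes blue; stress genes such as Gdf15, Trib3 and Ddit3 lie among the lowest, and S100b, Has2, Mgp and Gbp2 among the highest.

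Against the control, the called genes fell mostly into 2 kinds. For 495 of the 1115 (44.4%) the GAP-scr mean lay between the means of the arms, whereas over all genes tested this held for 2324 (21.1%). Only the order of the means was counted, so either arm may still overlap GAP-scr or not differ from it in the test. For 545 of them GAP-2 lay in the middle, and for 75 GAP-2/3 did. Among the 401 lower genes GAP-scr was in the middle for 211 (52.6%), and among the 50 with a difference beyond 1 for 35 (70%). Of the 714 higher genes GAP-2 was in the middle for 415 (58.1%), near the 54.5% of all genes tested, and GAP-2/3 for 15 (2.1%), beside 24.3% of all. These shares were not tested, and choosing genes by a difference between the arms by itself makes it rarer for an arm to lie in the middle. Both arms share the GAP-scr libraries; against them 1604 genes were called in GAP-2 (14.6% of those tested) and 4323 in GAP-2/3 (39.3%).

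**Figure D2:**
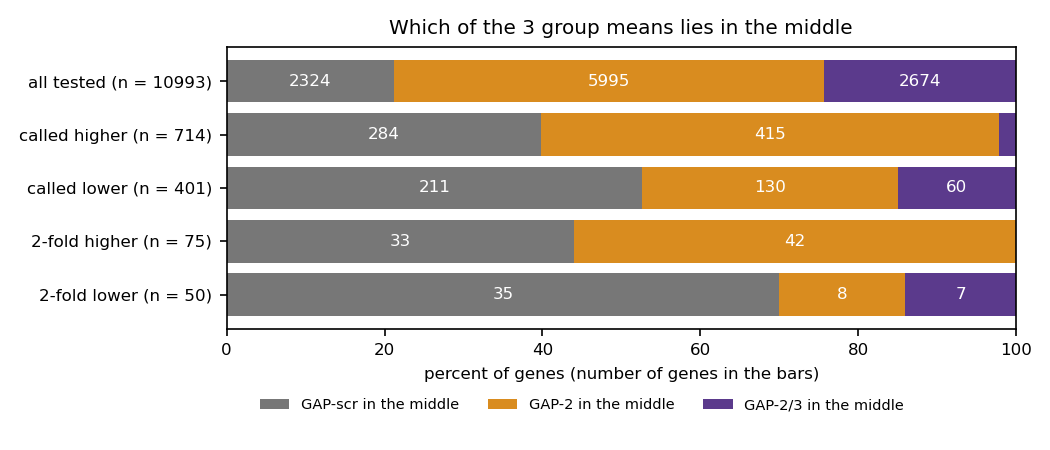
Each bar divides a set of genes by which of the 3 group means lies in the middle, as percent of the set with the number of genes in the bar. GAP-scr lies in the middle for 21.1% of all genes tested but for 52.6% of the genes lower in GAP-2/3.

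Of the 12 lowest genes 5 belonged to the integrated stress response. Of the 22 tested targets and regulators of Atf4, 17 were lower in GAP-2/3 and 0 higher, beside 3.65% and 6.5% of all genes. The median difference was -1.04, beside 0.05 over all genes. Gdf15, a stress-induced cytokine that reduces appetite, read 22.8 and 20.2 FPKM in GAP-2 and 3.81 and 4.40 in GAP-2/3, beside 11.3 and 10.1 in GAP-scr. The control libraries therefore lay between the arms with no overlap. The difference was -2.14 ± 0.13 (SE, limma adjusted p = 2.03e-06). Trib3, a pseudokinase induced by ATF4, read 41.2 and 51.7 FPKM in GAP-2, 9.66 and 13.9 in GAP-2/3, against 26.1 and 31.5 in GAP-scr, a difference of -1.90 ± 0.17 (limma adjusted p = 4.68e-05). Ddit3, which encodes the transcription factor CHOP, read 105 and 117 FPKM in GAP-2 against 36.7 and 42.3 in GAP-2/3, a difference of -1.47 ± 0.14 (limma adjusted p = 6.12e-05). Its GAP-scr libraries, at 39.1 and 50.6, overlapped GAP-2/3. Ddit3 thus differed from GAP-scr in GAP-2 (1.30 ± 0.14, adjusted p = 0.000143) and did not pass in GAP-2/3 (-0.17, adjusted p = 0.334).

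Other members varied in where the control stood. Chac1, which breaks down glutathione, read 31.6 and 41.8 FPKM in GAP-2, 10.6 and 12.1 in GAP-2/3, compared with 33.7 and 33.2 in GAP-scr, a difference between the arms of -1.60 ± 0.14 (limma adjusted p = 3.87e-05). GAP-2 and GAP-scr overlapped, and only GAP-2/3 stood apart. Adm2, a peptide hormone of the calcitonin family, showed the same overlap, with 6.20 and 8.83 FPKM in GAP-2, 1.69 and 2.29 in GAP-2/3, beside 6.58 and 8.37 in GAP-scr. Ddit4, an inhibitor of mTORC1 that is also induced by hypoxia, differed by -1.24 ± 0.11, from 222 and 206 FPKM in GAP-2 to 86.5 and 94.3 in GAP-2/3, with GAP-scr between at 141 and 124. Against GAP-scr, 8 members were higher and 0 lower in GAP-2, where 10.4% of all genes were higher and 4.18% lower. In GAP-2/3 1 was higher and 15 lower, beside 28% and 11.3% of all genes. Of the 17 lower members 14 had the GAP-scr mean in the middle. Among them, Chac1 overlapped GAP-scr in GAP-2 and Ddit3 in GAP-2/3.

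Atf4 mRNA did not pass the test. It read 405 and 463 FPKM in GAP-2 and 337 and 363 in GAP-2/3, a difference of -0.31 ± 0.12 (limma adjusted p = 0.117), and ATF4 protein was not measured. Nupr1, a stress-induced nuclear protein, was the member with the highest difference and did not pass either, at 0.23 ± 0.13. Between 11 members (without GAP-2/3 replicate A) and 18 (without either GAP-scr library) were lower when 1 library was left out, and 18 were lower without both libraries rich in Rn45s.

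**Figure D3:**
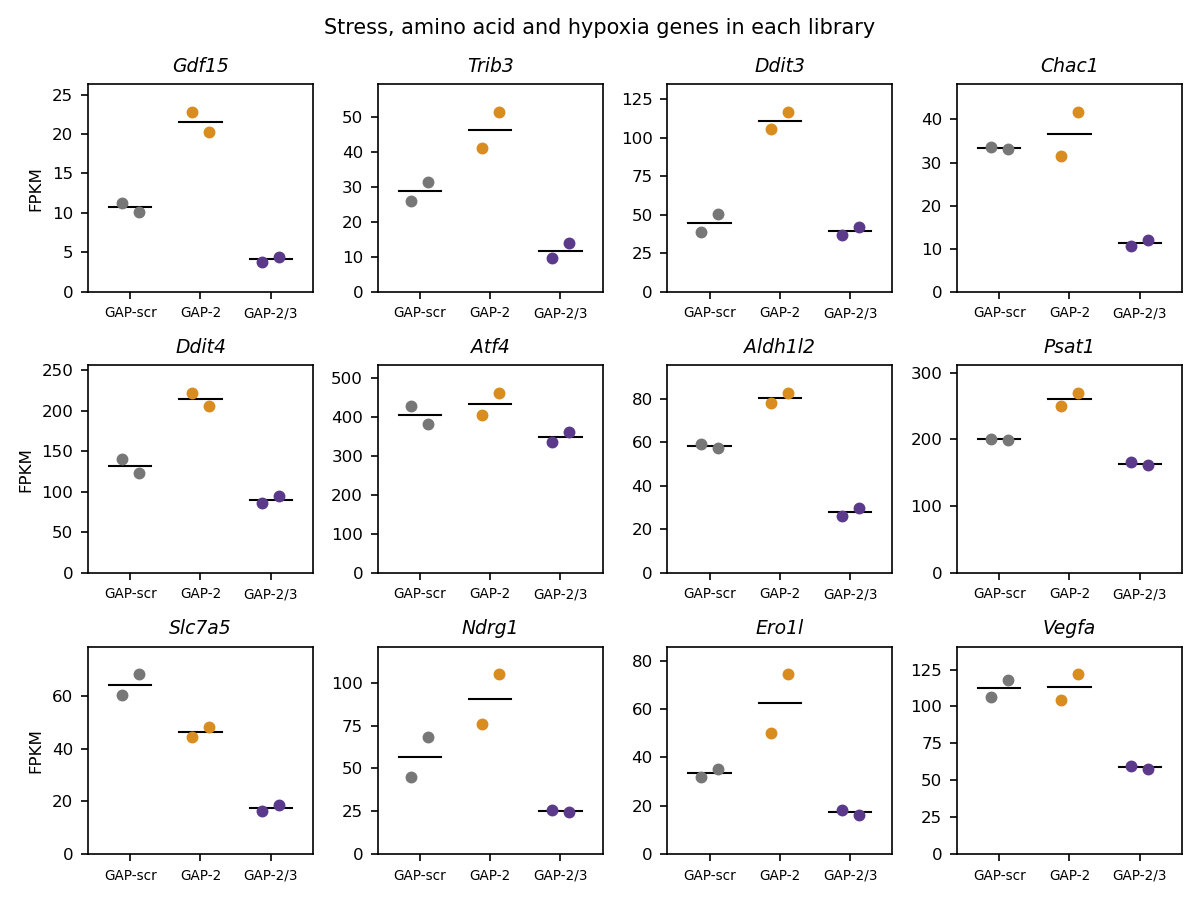
Each panel gives the FPKM of a gene in the 6 libraries, with a line at the mean of a group (n = 2). In all panels but that of Atf4 the GAP-2/3 points lie well below the GAP-2 points, and for Gdf15, Trib3, Ddit4, Aldh1l2, Psat1, Ndrg1 and Ero1l the GAP-scr points lie between.

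ATF4 and its partners bind a composite site known as the CARE or amino acid response element, searched here as TGATGNAA on either strand (TTNCATCA on the other) in RefSeq promoter windows of 300 bases, 250 before to 50 after each gene's start (GRCm38.p6). The letters were found in 8 of the 20 windows of the Atf4 list (40%), in 221 of 8823 tested genes with a window (2.5%), in 22 of the 313 lower genes (7.03%) and in 12 of the 570 higher genes (2.11%). The list holds genes known as ATF4 targets, so its share is not independent of the motif. For 5 lower members the 100 bases of the window around the match are given, 5′ to 3′ on the strand of the gene, with the match in capitals, because 4 of them carry the same 8 letters. Apart from Chac1, these genes were chosen for the motif after their values were seen.
Chac1, chr2:119351003-119351102, plus strand: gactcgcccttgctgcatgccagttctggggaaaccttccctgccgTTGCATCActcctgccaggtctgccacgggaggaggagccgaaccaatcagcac
Atf3, chr1:191183390-191183489, minus strand: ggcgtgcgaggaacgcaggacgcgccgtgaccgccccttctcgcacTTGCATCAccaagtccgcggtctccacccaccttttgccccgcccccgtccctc
Vldlr, chr19:27216774-27216873, plus strand: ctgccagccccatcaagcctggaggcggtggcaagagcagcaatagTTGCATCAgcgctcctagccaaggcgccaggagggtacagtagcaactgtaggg
Fgf21, chr7:45615576-45615675, minus strand: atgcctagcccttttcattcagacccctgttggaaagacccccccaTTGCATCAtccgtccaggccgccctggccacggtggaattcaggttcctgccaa
Asns, chr6:7693210-7693309, minus strand: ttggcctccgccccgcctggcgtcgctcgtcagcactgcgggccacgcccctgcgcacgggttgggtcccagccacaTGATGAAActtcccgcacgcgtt

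The genes of these windows were all lower in GAP-2/3 but differed in where GAP-2 stood. Atf3, a stress-induced transcription factor, read 4.32 and 6.43 FPKM in GAP-2 against 1.71 and 1.38 in GAP-2/3, with GAP-scr between at 3.29 and 2.98. Vldlr, a lipoprotein receptor, read 3.10 and 4.05 FPKM in GAP-2, 0.856 and 0.832 in GAP-2/3, against 1.83 and 2.19 in GAP-scr. Fgf21, a secreted metabolic hormone, read 158 and 203 FPKM in GAP-2 and 83.9 and 81.6 in GAP-2/3. Its GAP-scr libraries, at 313 and 202, overlapped GAP-2, which was in the middle by its mean alone. Asns, asparagine synthetase, had the smallest difference of the 5, at -0.68 ± 0.12 (limma adjusted p = 0.00564). The calls of Fgf21 and Asns were lost without either GAP-2/3 library, and that of Asns also without GAP-2 replicate B; those of Chac1, Atf3 and Vldlr held under each alternative that tested them. Nupr1 and Jdp2 also hold the motif, and their differences, 0.23 and -0.30, did not pass. Among the called members with a window 6 of 15 held it (40%), the same share as in the whole list.

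Enzymes that make serine, proline and folate one-carbon units moved in the same direction. Of 14 tested, 9 were lower and 0 higher, beside 3.65% and 6.5% of all genes, with a median difference of -0.74. Aldh1l2, a mitochondrial folate enzyme, read 78.2 and 82.9 FPKM in GAP-2, 26.2 and 29.7 in GAP-2/3, beside 59.3 and 57.5 in GAP-scr, a difference of -1.50 ± 0.11 (limma adjusted p = 1.07e-05). Psat1, a transaminase of serine synthesis, read 251 and 270 FPKM in GAP-2 and 166 and 161 in GAP-2/3, with GAP-scr between at 200 and 199. Shmt2, the mitochondrial enzyme that takes one-carbon units from serine, showed another order: 102 and 108 FPKM in GAP-scr, 79.0 and 78.6 in GAP-2 and 35.5 and 45.2 in GAP-2/3. It was lower than GAP-scr in both arms, and lower in GAP-2/3 than in GAP-2 by 0.96 ± 0.12 on the log2 scale (limma adjusted p = 0.000618). Mthfd1l, which releases formate in mitochondria, differed by -1.01 ± 0.14, and Psph, the last enzyme of serine synthesis, by -0.84 ± 0.12. From 6 (without either GAP-2/3 library) to 9 members were lower with 1 library left out.

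Amino acid transporters and the enzymes that charge tRNA followed, with smaller differences. Of 16 transporters 8 were lower and 1 higher (median -0.40), beside 3.65% and 6.5% of all genes. Slc7a5, the light chain of the large neutral amino acid exchanger, read 44.6 and 48.1 FPKM in GAP-2, 16.3 and 18.5 in GAP-2/3, against 60.3 and 68.6 in GAP-scr, a difference between the arms of -1.36 ± 0.12 (limma adjusted p = 3.87e-05). Its partner, the heavy chain Slc3a2, which is also counted in the Atf4 list, differed by -0.91 ± 0.11, from 113 and 126 FPKM to 60.0 and 66.0. The glycine transporter Slc6a9 differed by -1.18 ± 0.12 and the alanine, serine and cysteine transporter Slc1a4 by -1.02 ± 0.11. Slc38a2, the most abundant transporter of the list, stood at 241 and 244 FPKM in GAP-2 and 223 and 224 in GAP-2/3, which did not pass (limma adjusted p = 0.552). The higher member was Slc43a1, named after its value was seen. Without either GAP-2/3 library 5 transporters were lower. Of 20 cytosolic aminoacyl-tRNA synthetases 9 were lower and 0 higher (median -0.39), beside the same shares of all genes. Wars, for tryptophan, went from 19.4 and 23.8 FPKM in GAP-2 to 11.5 and 12.5 in GAP-2/3, and Sars, for serine, from 99.9 and 113 to 65.8 and 66.3. The synthetase count rests on single libraries: it was 0 without GAP-2/3 replicate A, 4 without GAP-2/3 replicate B and 3 without either GAP-2 library.

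Genes of the hypoxia response formed the other large group of lower genes. Of 22 tested, 14 were lower and 0 higher, beside 3.65% and 6.5% of all genes. All 22 differences were negative, beside 4525 of 10993 over all genes, and the median was -0.79, beside 0.05. Ndrg1, a stress gene strongly induced by low oxygen, read 76.2 and 106 FPKM in GAP-2, 25.4 and 24.6 in GAP-2/3, compared with 44.8 and 68.4 in GAP-scr, a difference of -1.80 ± 0.19 (limma adjusted p = 0.000142). Ero1l, an oxidase of the endoplasmic reticulum, read 50 and 74.6 FPKM in GAP-2, 18.2 and 16.1 in GAP-2/3, beside 31.8 and 35.0 in GAP-scr, a difference of -1.78 ± 0.16 (limma adjusted p = 5.84e-05). For both genes the control libraries lay between the arms. Vegfa, the vascular growth factor, stood at 105 and 122 FPKM in GAP-2 and 107 and 118 in GAP-scr, and at 59.7 and 57.8 in GAP-2/3, a difference between the arms of -0.93 ± 0.11 (limma adjusted p = 0.000439). Its GAP-2 and control values overlapped. Apln, a vasoactive peptide outside the list that is among the 12 lowest genes, went from 13.9 and 17.8 FPKM to 5.04 and 5.08. Against GAP-scr 5 members were higher and 0 lower in GAP-2, where 10.4% of all genes were higher and 4.18% lower. In GAP-2/3 0 were higher and 16 lower, beside 28% and 11.3% of all genes. The count of lower members ran from 9 (without GAP-2/3 replicate B) to 18 (without either GAP-scr library), and was 17 without both libraries rich in Rn45s.

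The core of the hypoxia response element, ACGTG on either strand, stood in 14 of 18 windows of the list (77.8%) and in 2679 of 8823 tested genes with a window (30.4%). Over all called genes it stood in 33.9% of the windows of the lower and 22.1% of those of the higher genes. A 5-letter motif is common, and the list was made of known targets. A window with several matches was counted once. The upstream stretches of 3 lower genes with a match follow, because these genes differ in how close it lies to the start: 18 bases in Car9, 63 in Ero1l and 108 in Bnip3, where the capitals span matches on both strands. Car9 and Bnip3 were chosen for the motif after their values were seen.
Ero1l, chr14:45318582-45318681, minus strand: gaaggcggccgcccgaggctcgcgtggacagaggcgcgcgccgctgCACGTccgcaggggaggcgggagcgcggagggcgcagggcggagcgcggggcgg
Bnip3, chr7:138909561-138909660, minus strand: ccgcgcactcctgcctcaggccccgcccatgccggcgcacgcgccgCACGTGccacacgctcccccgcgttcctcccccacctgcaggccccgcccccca
Car9, chr4:43506926-43507025, plus strand: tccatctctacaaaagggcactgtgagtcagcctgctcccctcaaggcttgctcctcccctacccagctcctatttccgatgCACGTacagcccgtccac

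Bnip3, a mitochondrial protein of mitophagy, read 134 and 177 FPKM in GAP-2, 75.0 and 53.3 in GAP-2/3, against 130 and 128 in GAP-scr. Car9, a carbonic anhydrase of the cell surface, read 5.72 and 7.13 FPKM in GAP-2, 2.86 and 1.77 in GAP-2/3, compared with 6.08 and 7.19 in GAP-scr. For Car9 GAP-2 overlapped the control and only GAP-2/3 stood apart. For Bnip3 both GAP-2 values lay above those of GAP-scr, so that the control lay between the arms. The differences of Bnip3 and Car9 between the arms, -1.27 ± 0.16 and -1.18 ± 0.17, were called under every alternative.

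Within glycolysis, the lower genes included those of glucose uptake, hexokinase and lactate export. Of 22 tested genes 8 were lower and 0 higher (median -0.40), beside 3.65% and 6.5% of all genes. Hk2, the inducible hexokinase, read 20.8 and 22.6 FPKM in GAP-2 and 9.50 and 9.89 in GAP-2/3, beside 23.1 and 21.2 in GAP-scr, a difference of -1.08 ± 0.11 (limma adjusted p = 0.000142). Slc2a1, the basal glucose transporter GLUT1, went from 75.8 and 91.7 FPKM to 41.0 and 42.8. Slc2a3, the transporter GLUT3 and a gene outside the list, went the opposite way, from 1.84 and 3.24 FPKM in GAP-2 to 13.5 and 14.1 in GAP-2/3, beside 1.46 and 3.12 in GAP-scr, a difference of 2.09 ± 0.23 (limma adjusted p = 0.000189). At the levels reached, Slc2a3 remained below Slc2a1. Gapdh, the most abundant gene of the list, stood at 2792 and 3012 FPKM in GAP-2 and 2865 and 2749 in GAP-2/3, which did not pass (limma adjusted p = 0.86). Without GAP-2/3 replicate B 2 members were lower, without GAP-2/3 replicate A 3, without GAP-2 replicate B 5, and without either GAP-scr library 14.

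**Figure D4:**
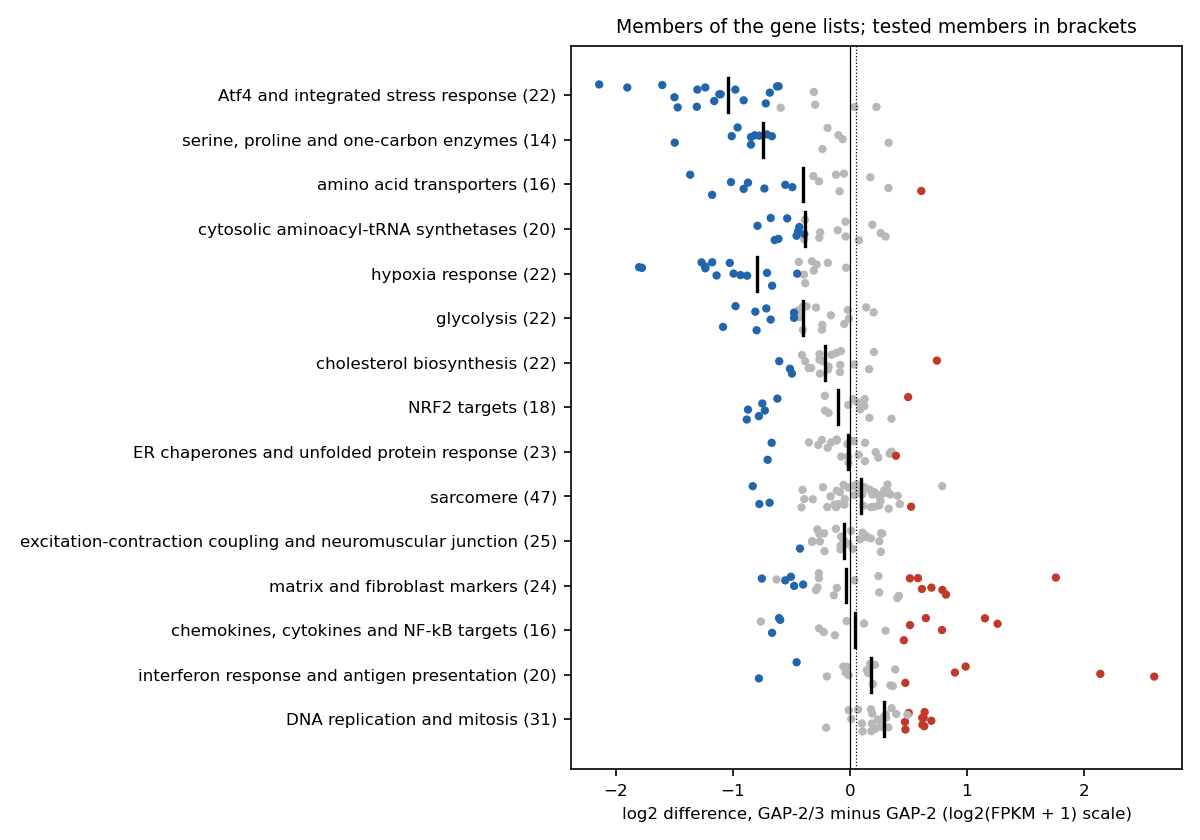
Each point is a tested member of a list at its difference, GAP-2/3 minus GAP-2, with called members in blue (lower) or red (higher); the bar marks the median of the list and the dotted line that of all genes (0.05). The lists of the stress response (-1.04), hypoxia (-0.79) and serine, proline and one-carbon enzymes (-0.74) have the lowest medians among those drawn.

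The 12 highest genes include S100b, Has2, Mgp, Angpt1 and Ednra. S100b, a calcium-binding protein known from glia and also found in muscle precursors, read 4.50 and 4.04 FPKM in GAP-2, 28.5 and 30.8 in GAP-2/3, beside 1.18 and 2.33 in GAP-scr, a difference of 2.54 ± 0.17 (limma adjusted p = 6.15e-06). Has2, the synthase of hyaluronan, read 14.0 and 15.5 FPKM in GAP-2, 75.7 and 70.9 in GAP-2/3, against 12.6 and 13.1 in GAP-scr, a difference of 2.24 ± 0.11 (limma adjusted p = 6.65e-07). GAP-2 thus lay close to the control for Has2, and GAP-2/3 alone was high. Mgp, a matrix inhibitor of calcification, was the most abundant of these genes, with 234 and 233 FPKM in GAP-2, 833 and 755 in GAP-2/3, compared with 126 and 231 in GAP-scr. Angpt1, the ligand of the receptor TIE2, read 21.2 and 21.5 FPKM in GAP-2, 73.8 and 64.7 in GAP-2/3, beside 22.5 and 16 in GAP-scr. Ednra, an endothelin receptor, read 2.11 in both GAP-2 libraries and 11.2 and 12.3 FPKM in GAP-2/3.

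The remaining genes of the 12 highest were of mixed function. Tppp3, a tubulin-binding protein, went from 67.2 and 75.8 FPKM in GAP-2 to 212 and 259 in GAP-2/3, beside 48.7 and 60.6 in GAP-scr. Sepp1, the plasma selenium carrier, went from 8.45 and 8.27 FPKM to 26.5 and 26.3. Krt19, an intermediate filament protein, went from 2.57 and 3.88 to 16.8 and 16.9 FPKM. Mt2, a metal-binding metallothionein, went from 6.09 and 6.15 to 21.5 and 23. Pmp22, a membrane protein of myelin, differed by 1.67 ± 0.22, and its adjusted p was 0.056 (limma) without GAP-2/3 replicate A. Gja5, a connexin, differed by 1.76 ± 0.49 (limma adjusted p = 0.0429), from 2.94 and 7.76 FPKM in GAP-2 to 17.7 and 20.1 in GAP-2/3. Its GAP-scr libraries, at 3.48 and 16.7, spanned most of that range, and its adjusted p was 0.172 without GAP-2 replicate A, 0.272 with GAP-2/3 replicate A left out and 0.26 with replicate B of that arm left out. Of the 12 highest genes, 10 were called under all 18 alternatives. They were picked as the largest called differences of the same libraries, so this count is not independent support. S100b, Krt19, Slc2a3 and Ednra averaged under 5 FPKM in both GAP-scr and GAP-2. These genes reached the minimum of 5 FPKM for naming only through GAP-2/3.

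Genes induced by interferon were higher in part. Of 20 tested, 5 were higher and 2 lower, beside 6.5% and 3.65% of all genes, with a median difference of 0.19. Gbp2, a guanylate-binding protein of cell defence, was weakly expressed in GAP-2 with 1.30 and 1.20 FPKM and read 13.1 and 12.3 in GAP-2/3, beside 0.694 and 0.469 in GAP-scr (difference 2.6 ± 0.13, limma adjusted p = 6.65e-07). Iigp1, an immunity-related GTPase, read 0.604 and 0.642 FPKM in GAP-2, 5.93 and 6.41 in GAP-2/3, against 0.159 and 0.0755 in GAP-scr. Irgm1, of the same family, read 28.5 and 28.3 FPKM in GAP-2, 58.3 and 56.6 in GAP-2/3, compared with 17.8 and 19.7 in GAP-scr. For Gbp2, Iigp1, Irgm1 and the nucleic acid sensor Zbp1 the control was lowest, GAP-2 intermediate and GAP-2/3 highest. Gbp2 and Iigp1 passed the filter of 1 FPKM only through the GAP-2/3 libraries, so that they had to differ to be tested; Irgm1 and Zbp1 passed in both arms against GAP-scr. Not all of the list moved this way: the class I antigen-presenting genes H2-K1 and H2-D1, named after their values were seen, were the lower members. H2-K1 read 14.3 and 11.8 FPKM in GAP-2, 7.23 and 7.11 in GAP-2/3, beside 19.6 and 14.0 in GAP-scr, and both calls were lost without GAP-2 replicate A and without either GAP-2/3 library. With GAP-scr replicate B left out 8 members were higher.

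The interferon-stimulated response element, searched as a pair of GAAA with any 2 bases between them on either strand, stood in 9 of the 17 windows of the list (52.9%) and in 296 of 8823 windows of tested genes (3.35%), again for a list of known targets. Of those 9 genes 6 did not pass (Stat2, Bst2, B2m, Isg15, Igtp and Ifitm3), and Isg15, with 3 matches, differed by -0.01. The windows of Gbp2 and Irgm1 are given because both genes were higher and hold the motif near the start, on opposite strands; like the 6 names above, they illustrate the motif and were picked with their values known. In Irgm1 the capitals span 2 overlapping matches.
Gbp2, chr3:142620558-142620657, plus strand: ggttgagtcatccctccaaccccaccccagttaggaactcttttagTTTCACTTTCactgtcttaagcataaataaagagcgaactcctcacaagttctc
Irgm1, chr11:48871421-48871520, minus strand: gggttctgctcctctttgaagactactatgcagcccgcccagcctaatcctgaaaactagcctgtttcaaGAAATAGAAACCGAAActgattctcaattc

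Cytokine genes were divided. Of 16 chemokines, cytokines and NF-kB targets 6 were higher and 3 lower (median 0.05), beside 6.5% and 3.65% of all genes. Il33, an alarmin cytokine, was lowest in GAP-scr at 4.10 and 4.86 FPKM, with 14.5 and 16 in GAP-2 and the highest values, 41.2 and 35.0, in GAP-2/3, with a difference between the arms of 1.26 ± 0.13 (limma adjusted p = 0.000124). Cx3cl1, a membrane-bound chemokine, stood at 2.72 and 2.56 FPKM in GAP-2, 2.86 and 4 in GAP-scr and 6.57 and 7.68 in GAP-2/3; GAP-2 did not pass against GAP-scr (limma adjusted p = 0.22). Both were called under every alternative that tested them, and Cx3cl1 was not tested at a minimum of 5 FPKM. Without either GAP-2/3 library 2 members were higher and 0 lower, without GAP-2 replicate A 3 and 1, and without GAP-2 replicate B 3 and 2.

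Growth factor response genes also went both ways. Of 21 immediate early and ERK feedback genes 4 were higher and 2 lower, beside 6.5% and 3.65% of all genes. Egr2, an immediate early transcription factor, read 21.7 and 25.1 FPKM in GAP-2, 54.7 and 68.6 in GAP-2/3, against 21.7 and 27.1 in GAP-scr, a difference of 1.36 ± 0.14 (limma adjusted p = 0.000163). Dusp6, a phosphatase that dampens ERK, read 41.1 and 44.7 FPKM in GAP-2, 91.1 and 89.3 in GAP-2/3, compared with 54.6 and 65.3 in GAP-scr, so that the control lay between. Egr1, the most abundant of the list, did not pass (0.06 ± 0.12). Myc was among the lower members, at 18.3 and 19.8 FPKM in GAP-2 and 10.9 and 12.5 in GAP-2/3; its adjusted p was 0.0573 without GAP-2 replicate B and 0.104 without GAP-2/3 replicate A (limma). Without GAP-2/3 replicate B 2 members of the list were higher, and without GAP-2 replicate B or GAP-2/3 replicate A none was lower; without either GAP-scr library 8 were higher.

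**Figure D5:**
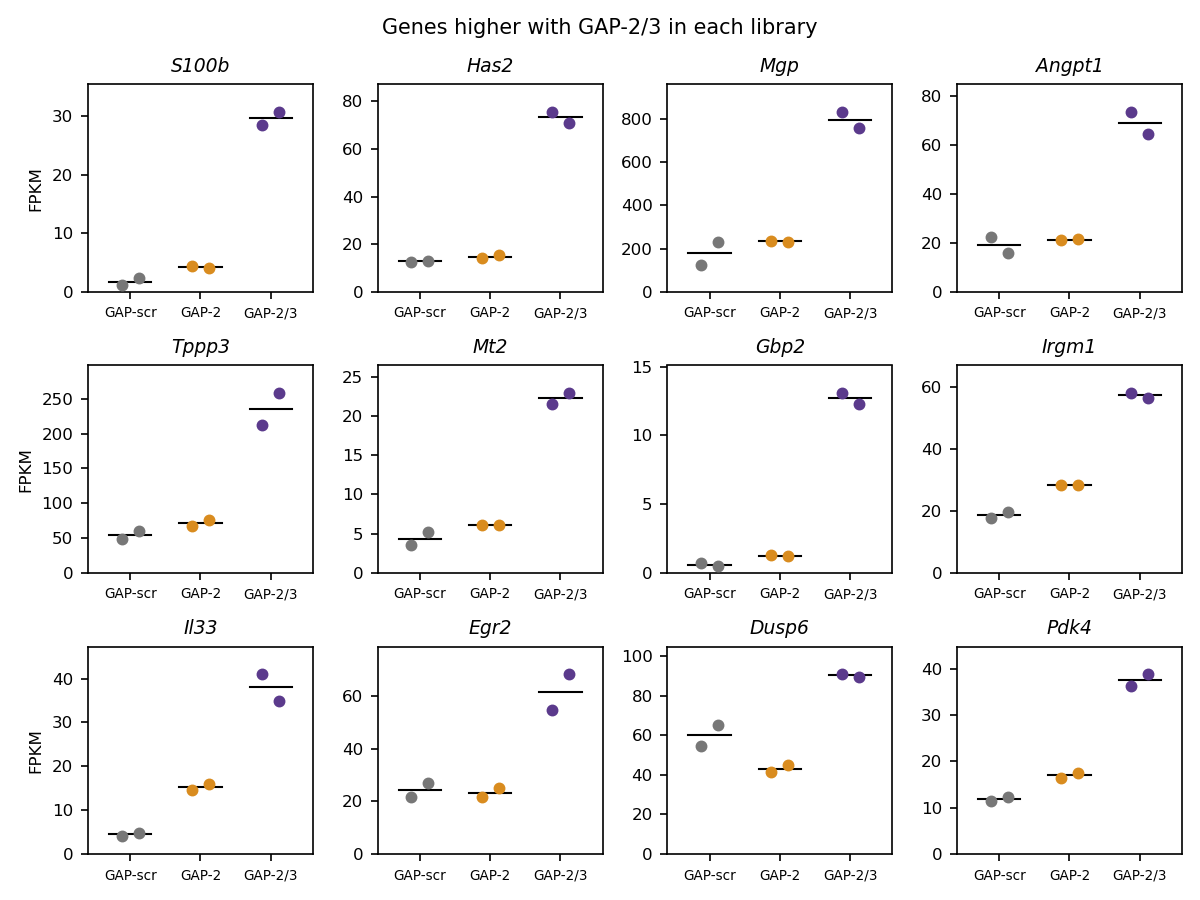
Each panel gives the FPKM of a gene in the 6 libraries, with a line at the mean of a group (n = 2). The GAP-2/3 points lie above all others in every panel. GAP-2 overlaps GAP-scr for Angpt1 and Egr2 and lies below it for Dusp6. In the other panels GAP-2 lies between GAP-scr and GAP-2/3, though close to GAP-scr for Has2 and to its replicate B for Mgp.

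Most targets of NRF2, the regulator of the response to oxidants, were higher in GAP-2 than in GAP-scr, and some of them were lower again in GAP-2/3. Of 18 tested, 6 were lower and 1 higher in GAP-2/3 than in GAP-2 (median -0.10), beside 3.65% and 6.5% of all genes. Against GAP-scr 14 were higher and 0 lower in GAP-2, beside 10.4% and 4.18% of all genes. In GAP-2/3 11 were higher and 1 lower than in GAP-scr, beside 28% and 11.3% of all genes. Ftl1, the ferritin light chain, read 757 and 738 FPKM in GAP-scr, 1747 and 1771 in GAP-2 and 985 and 1113 in GAP-2/3. Srxn1, sulfiredoxin, read 7.53 and 8.36 FPKM in GAP-scr, 19.2 and 19.5 in GAP-2 and 10.5 and 11.3 in GAP-2/3. In both genes GAP-2/3 lay between the control and GAP-2 without overlap, and the difference between the arms was -0.75 ± 0.11 for Ftl1 and -0.78 ± 0.11 for Srxn1 (limma adjusted p = 0.00158 each). Hmox1, heme oxygenase, overlapped the control in GAP-2/3, with 43.2 and 45.1 FPKM against 47.4 and 41.6 in GAP-scr and 70.7 and 76.9 in GAP-2. Without GAP-2/3 replicate A 2 targets were lower, and the adjusted p of Ftl1 was 0.0595 and that of Hmox1 0.0577.

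In the muscle lists the share of called genes was from 4% to 12.5%, beside 10.1% of all genes. Among 47 sarcomere genes 1 was higher and 3 lower (median 0.10). Against GAP-scr 31 of them were lower in GAP-2, beside 4.18% of all genes, and 27 in GAP-2/3, beside 11.3%. Without either GAP-scr library 10 were higher, and without either GAP-2/3 library 0 were called. Acta1, skeletal α-actin, read 2974 and 2834 FPKM in GAP-2 and 2928 and 3215 in GAP-2/3, both near a lower level than the 5636 and 6323 of GAP-scr, and the arms differed by 0.08 ± 0.12 (limma adjusted p = 0.717). Actn2, the Z-disc protein α-actinin-2, was among the lower members, at 20.1 and 15.6 FPKM in GAP-scr, 9.69 and 8.51 in GAP-2 and 5.10 and 5.44 in GAP-2/3; its adjusted p was 0.107 without GAP-2 replicate A, and 0.132 or 0.094 with GAP-2/3 replicate A or B left out (limma). Of 25 genes of excitation-contraction coupling and the neuromuscular junction 1 was lower and 0 higher, and of 20 fusion and adhesion genes 2 were higher and 0 lower. Of 16 myogenic factors and their inhibitors 2 were higher and 0 lower. Id3, an inhibitor of myogenic factors, read 37.9 and 28.2 FPKM in GAP-2 and 54.1 and 62.1 in GAP-2/3 (difference 0.81 ± 0.14), with an adjusted p of 0.0593 or 0.0986 (limma) when GAP-2/3 replicate A or B was left out. Myog, the other higher member, lost its call under 9 alternatives, among them scaling to one median. Of 11 genes of muscle energy metabolism 1 was higher and 0 lower: Pdk4, a kinase that restrains pyruvate oxidation, read 16.4 and 17.6 FPKM in GAP-2, 36.3 and 39.0 in GAP-2/3, beside 11.4 and 12.4 in GAP-scr, a difference of 1.11 ± 0.11 (limma adjusted p = 0.000123).

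Matrix and fibroblast genes moved in opposite directions within 1 list. Of 24 tested, 7 were higher and 5 lower (median -0.03), where over all genes tested 6.5% were higher and 3.65% lower. Besides Mgp, the higher members included Dcn, the proteoglycan decorin, with 72.7 and 71.3 FPKM in GAP-2 and 123 and 128 in GAP-2/3, and Vim, vimentin, with 1665 and 1838 against 2720 and 2964. Col1a1, the main chain of type I collagen, was lower, with 789 and 632 FPKM in GAP-2, 385 and 456 in GAP-2/3, against 778 and 808 in GAP-scr. These calls were sensitive to single libraries: without GAP-2/3 replicate A 1 member was higher and 0 lower, without GAP-2/3 replicate B 1 and 1, without GAP-2 replicate A 2 and 0, and without GAP-2 replicate B 4 and 2. In the TGF-beta and BMP list 3 of 14 were higher and 3 lower, and without either GAP-2/3 library 0 were higher. Grem1, a secreted BMP antagonist, was the lowest of these, with 10.1 and 11.4 FPKM in GAP-2, 4.11 and 3.06 in GAP-2/3, beside 5.16 in both GAP-scr libraries, a difference of -1.37 ± 0.14 (limma adjusted p = 0.000117). Fmod, the collagen-binding proteoglycan fibromodulin, had a like order, with 20.1 and 16.5 FPKM in GAP-2, 5.36 and 6.77 in GAP-2/3, compared with 7.26 and 8.76 in GAP-scr. Grem1 and Fmod were called under every alternative.

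Some cell cycle genes were higher in GAP-2/3. Of 31 genes of DNA replication and mitosis 9 were higher and 0 lower, beside 6.5% and 3.65% of all genes. In the list 29 differences were positive (median 0.29), beside 58.8% over all genes (median 0.05). Cdk1, the mitotic kinase, read 5.82 and 6.09 FPKM in GAP-2 and 10.3 and 9.11 in GAP-2/3, beside 4.62 and 5.70 in GAP-scr. In bulk RNA a larger share of dividing cells and more RNA per cell cannot be told apart, here or for any other gene group. Without GAP-2 replicate A or either GAP-2/3 library 0 members were higher, and 5 were without GAP-2 replicate B or without both libraries rich in Rn45s.

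The called shares of further stress and lipid lists, other than heat shock, ran from near the 10.1% of all genes upward. Of 23 ER chaperones and unfolded protein response genes 1 was higher and 2 lower (median -0.01), and Hspa5, the chaperone BiP, stood at 432 and 480 FPKM in GAP-2 and 460 and 458 in GAP-2/3 (limma adjusted p = 0.956). Of 26 p53 targets 1 was higher and 2 lower (median -0.21), with 23 differences negative, and Cdkn1a, the cyclin-dependent kinase inhibitor p21, differed by -0.30 ± 0.11 (limma adjusted p = 0.105). Cholesterol biosynthesis had 1 higher and 3 lower of 22 (median -0.21), with 18 negative. Fatty acid synthesis had 2 lower of 12 (median -0.30), with 11 negative. Over all genes tested 4525 of 10993 differences were negative. The lower members depended on single libraries: without either GAP-scr library there were 8 or 9 for p53, 7 for cholesterol and 6 for fatty acids. Without GAP-2 replicate A or GAP-2/3 replicate A there were 0 in each of these 3 lists, and without GAP-2/3 replicate B 0, 0 and 1. Heat shock genes lay below that share, with 1 of 19 higher. Of 5 metallothionein and zinc transport genes 3 were higher, Mt2 with the largest difference, and Mt1 went from 29.5 and 28 FPKM to 52.2 and 60.1 with an adjusted p of 0.154 or 0.196 (limma) when GAP-2/3 replicate A or B was left out.

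In the lists of general gene expression, 0 members were called among 80 cytosolic ribosomal proteins, 24 nucleolar ribosome biogenesis genes, 37 complex I subunits and 35 proteasome subunits (limma); at an unadjusted p under 0.05 there were 2, 3, 6 and 1. Of 76 mitochondrial ribosomal proteins 2 were higher, of 21 lysosome and autophagy genes 2 lower, of 14 small nucleolar RNA host genes 1 lower and of 13 Notch pathway genes 1 lower. Of 13 imprinted genes 2 were lower, and of 19 SRF and YAP targets 2 higher. Over all genes tested 6.5% were higher and 3.65% lower. Of the numbered zinc finger genes described last, 6.58% were called, below the 10.1% of all genes. Without either GAP-2/3 library 0 members of the mitochondrial ribosomal, lysosome, Notch, imprinted and SRF lists were called. With a GAP-scr library left out the counts rose: 6 to 7 mitochondrial ribosomal proteins, 5 complex I subunits and 5 SRF and YAP targets were higher, and 5 lysosome genes, 6 small nucleolar RNA host genes and 4 to 5 imprinted genes lower. Of 243 numbered zinc finger (Zfp) genes 15 were higher and 1 lower with a median difference of 0.18, and 0 were higher without GAP-2 replicate A or either GAP-2/3 library, 5 without GAP-2 replicate B, 34 to 35 without a GAP-scr library and 8 with every library scaled to the same median.

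The labelled cell type was checked against 8 defining myotube markers, which were all tested and sum to between 6245 and 7192 FPKM in the libraries of the 2 arms, beside 10411 to 11356 in GAP-scr; 1 of them, Myog, was higher in GAP-2/3. Of 10 macrophage markers 2 were tested, with summed levels of 7.28 to 7.70 FPKM in GAP-2 and 5.25 to 5.55 in GAP-2/3, where GAP-scr had 3.12 to 4.04; Cd68, the lysosomal marker, was lower in GAP-2/3 with an adjusted p of 0.0035, but of 0.0875 and 0.0937 without GAP-2/3 replicate A or B (limma). Of 8 adipocyte markers 2 were tested and none called, and of 8 endothelial markers 0 were tested. Of 9 Schwann and glial markers 2 were tested, S100b and the receptor Erbb3, with summed levels of 19.7 to 19.8 FPKM in GAP-2 and 42.8 to 48.8 in GAP-2/3, where GAP-scr had 26.7 to 27.7; Erbb3 did not pass (0.04), and the other defining markers were not analysed here. Of 10 osteoblast and chondrocyte markers 5 were tested and 1, the secreted phosphoprotein Spp1, was higher, at 552 and 648 FPKM in GAP-2 and 1377 and 1011 in GAP-2/3, with an adjusted p of 0.0841 (limma) without GAP-2/3 replicate A. The 5 tested osteoblast and chondrocyte markers had 1 positive and 4 negative differences, with a median of -0.03. The part of other cell types in the differences was not tested.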

How the data were processed

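The authors deposited FPKM values, 1 column per library. Among the tools in the submitters' processing notes are TopHat2, Bowtie2, Cufflinks and Cuffdiff, with the build mm9 and no roles or versions; the library kit was a stranded mRNA kit, per the labels' protocols. Read depth is unknown.

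Genes averaging 1 FPKM or more over 6 libraries (10993) were fitted on log2(FPKM + 1) with limma 3.58.1 in R 4.3.3 (intensity trend, no covariate, 3 groups of 2), with Benjamini-Hochberg adjustment over all of them. The step was tested on simulated data. Further steps used Python 3.11.15 and pandas 2.3.3. The ChIRP peaks were not used here.

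The comparison and the 36 pathway and 6 marker lists were chosen with earlier results of these data known. Genes were named by rule: the 12 highest and 12 lowest called differences averaging 5 FPKM or more, without overlap between the arms, up to 4 members of each pathway list with the smallest p and its most abundant member, and all tested markers; exceptions are stated. Promoter windows came from RefSeq (GRCm38.p6), with 10949 genes matched, 683 of them by an older symbol. The alternatives comprised a pseudocount of 0.1, no filter or a minimum of 5 FPKM, quantile or median scaling, no trend, a replicate block, only the arms, a threshold of 0.1 and each library left out; leaving out both libraries rich in Rn45s, scaling to one FPKM sum without Rn45s and a crossed block were chosen after seeing the data.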

Additional observations from a re-analysis of the deposited data

How the results depend on the processing

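Under each of the 18 alternatives, 0 of the 1115 genes were called in the opposite direction. The total of 1115 ran from 195 to 2052 when 1 library was left out, the higher genes from 117 to 1330 and the lower from 78 to 722; an arm left with 1 library is assumed to vary like the other groups. With only the 4 libraries of the arms 2055 genes were called (1338 higher, 717 lower), and at a threshold of 0.1 there were 1781 (1152 and 629). A minimum of 5 FPKM gave 472 higher genes and one FPKM sum without Rn45s 436, fewer genes being tested under the former. Quantile normalization made the split 493 higher and 503 lower, and one FPKM sum 436 and 395, so the excess of higher genes depends on the scaling. With 1 library left out, lower members ran from 11 to 18 for the Atf4 list, 5 to 8 for amino acid transporters, 0 to 11 for tRNA synthetases, 2 to 14 for glycolysis and 9 to 18 for hypoxia. Glycolysis had 14 lower members with only the arms, 13 with the replicate block, 13 at a threshold of 0.1 and 13 with the crossed block; the cause was not tested for any of these changes. Libraries with the same letter deviated together in 1 pair of groups and not in the other 2 (correlations of deviations 0.36 for GAP-scr and GAP-2, -0.131 for GAP-scr and GAP-2/3 and -0.181 for GAP-2 and GAP-2/3), so the letters were not taken as pairs; the replicate block gave 1469 genes (937 higher, 532 lower), and the crossed pairing gave 1598 (1015 and 583). Of the 112 named genes called, 43 were called under every alternative that tested them, 47 lost the call only when a library of an arm was left out and 22 under another alternative. Depth is unknown, and 2 libraries a group limit the precision.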

Other observations

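Some of the largest differences concern genes with near-identical copies, whose FPKM may have been split between the copies. The gene with the smallest adjusted p was Hba-a1, an α-globin, at 0.000649 and 0.102 FPKM in GAP-2 and 9.39 and 8.23 in GAP-2/3, while its copy Hba-a2 stood at 7.24 and 4.37 and at 0.00653 and 0.136. Their sum was 7.24 and 4.47 FPKM in GAP-2, 9.40 and 8.36 in GAP-2/3, against 3.85 and 4.71 in GAP-scr. Amd1, the called gene with the lowest difference (-3.09, limma adjusted p = 0.044), read 19.6 and 53 FPKM in GAP-2 and 0.0603 and 13.4 in GAP-2/3, but the sum with its copy Amd2 was 47.0 and 53 against 45.4 and 39.4. Without GAP-2 replicate B the adjusted p of Amd1 was 0.0827 and without GAP-2/3 replicate A 0.34.

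Sprr2k, a gene of the cornified envelope family chosen here for its size, had the highest difference of all called genes, 3.39, at 0.340 and 0.354 FPKM in GAP-2 and 13.3 and 12.9 in GAP-2/3, with GAP-scr at 0.234 and 1.25. It reached the mean of 1 FPKM only through GAP-2/3, so that it had to differ to be tested.

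Large differences that were not called came from single libraries. Rmrp, a non-coding RNA, read 331 and 5.70 FPKM in GAP-2, 2.61 and 1.56 in GAP-2/3, compared with 142 and 3.79 in GAP-scr. Lars2 read 153 and 15.6, 10.6 and 9.79, and 128 and 18.4 FPKM in the same order, so both were high in the same 2 libraries as Rn45s. Rps27 read 120 FPKM in GAP-2/3 replicate B and at most 4.87 in the other libraries.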
